A study of Mus musculus with 23 samples.

Results

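The genes of the cytosolic ribosomal proteins were followed across 23 melanoma tumors of mice. They were taken by name, as the protein-coding genes in the table of counts called Rpsa or named with Rpl, Rps, Rplp or Rpsp and a number, with or without an ending such as a, x, l, al or l1. This rule found 83 genes among 56748, of which 31 belong to the small (40S) subunit and 52 to the large (60S) subunit. All tumors were grown from B16-F1 cells, a melanoma line that arose in C57BL/6 mice, placed under the skin of the right flank of DBA/2J mice aged 6 to 8 weeks. Mice were treated by the intraperitoneal (IP) or the intratumoral (IT) route with pentoxifylline (PTX, 60 mg/kg), a methylxanthine derivative, with norcantharidin (NCTD, 3 mg/kg), a demethylated form of cantharidin, or with both (MIX). The IP groups were CTRL_IP (saline), PTX_IP, NCTD_IP and MIX_IP, with 2 tumors each. The IT groups were CTRL_IT (DMSO), NCTD_IT and MIX_IT with 4 tumors each and PTX_IT with 3. The labels give the route as the batch, and the vehicle of the controls changed with it, so that route, batch and vehicle cannot be told apart. All tumors come from the same cell line, and their RNA holds melanoma cells together with host cells.

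Each library held between 2861578 and 6702374 counts. A floor of 3 counts was worth 0.448 to 1.05 CPM (counts scaled to a library of fixed size) in a tumor and covers counting error only. Reads come from the 3′ ends of transcripts. CPM was therefore not divided by gene length, and an order of genes by CPM is an order of counts. The labelled tissue was checked with 8 melanoma genes, all of which were present in all groups, with a summed level of 15791 to 32687 CPM in the IT tumors. Several features of the IT libraries moved with the groups. Malat1, a nuclear noncoding RNA, lay at 76.3 to 96.5 CPM in CTRL_IT, 279 to 692 CPM in NCTD_IT, 156 to 498 CPM in MIX_IT and 74.2 to 424 CPM in PTX_IT. Genes of the mitochondrial genome took 2.42% to 2.68% of the counts in CTRL_IT, 2.47% to 6.32% in NCTD_IT, 3.57% to 5.73% in MIX_IT and 2.97% to 3.86% in PTX_IT. Xist, transcribed from the inactive X chromosome of female cells, was at 0 to 0.566 CPM in CTRL_IT and at 0 in every MIX_IT tumor, but at 5.19 to 13.6 CPM in NCTD_IT and 1.28 to 11.6 CPM in PTX_IT. Ddx3y, a gene of the Y chromosome, was at 1.03 to 8.98 CPM in CTRL_IT and 6.83 to 15.5 CPM in MIX_IT, but at 0 to 0.294 CPM in NCTD_IT and 0 to 0.279 CPM in PTX_IT. The labels do not give the sex of the mice, and the paper states that its treatment groups were matched by sex. By both genes NCTD_IT and PTX_IT stood apart from CTRL_IT and MIX_IT. Drug and this sex-linked difference therefore cannot be told apart in NCTD_IT or PTX_IT against CTRL_IT. The same holds for MIX_IT against NCTD_IT or PTX_IT.

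A ribosome is built from a small subunit, which reads the messenger RNA, and a large subunit, which joins the amino acids. Each subunit is a body of ribosomal RNA with many small proteins on it, nearly all of them needed in equal numbers of molecules. The proteins are made in the cytoplasm, carried to the nucleolus and assembled there on RNA that RNA polymerase I transcribes. Their messenger RNAs are among the most abundant of a growing cell. Many of them begin with a C followed by a run of pyrimidines, the terminal oligopyrimidine (TOP) start, through which mTOR signaling and the protein LARP1 control their translation and stability.

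The TOP start is a sequence feature that the name rule did not use, and the following examples were picked to show it. Starts were taken from RefSeq, in which 63 of the 83 genes were found by symbol, and placed on GRCm39 by an exact match. A start that opened with C and 4 further letters, each C or T, was present in 13 of these 63 genes (20.6%) and in 813 of 27025 genes of the same table (3.01%). By subunit it was found in 6 of 23 genes of the small and 7 of 40 genes of the large subunit. The windows run 5′ to 3′ from 15 bases before the start, and capitals mark the unbroken run of pyrimidines from the start onwards.
Rps6 (chr4:86775590-86775619, minus strand): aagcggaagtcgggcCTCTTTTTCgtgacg
Rps27 (chr3:90120941-90120970, minus strand): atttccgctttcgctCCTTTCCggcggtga
Rpl35 (chr2:38895129-38895158, minus strand): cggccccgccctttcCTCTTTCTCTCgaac
Rplp2 (chr7:141027549-141027578, plus strand): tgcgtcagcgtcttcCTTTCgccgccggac
Rps10 (chr17:27854204-27854233, minus strand): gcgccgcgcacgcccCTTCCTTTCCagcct
Rpl22l1 (chr3:28859642-28859671, plus strand): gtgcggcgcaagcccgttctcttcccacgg
The first 5 of these windows hold the run at the annotated start, but they are not typical of the members. Rpl10a, Rpl19, Rps3, Rpsa, Rplp0 and Rps26, described below, had no such start. Rpl22l1, a paralog of Rpl22, has no run there, and its pyrimidines begin 1 base after the annotated start. A start that is annotated slightly off would also show no run, so that the share counts annotated starts only.

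The members spanned a wide range of levels. The 5 with the highest mean CPM over the 23 tumors were Rpl39 (3604 CPM), Rps29 (2777 CPM), Rplp1 (2670 CPM), Rpl37 (2542 CPM) and Rpl32 (2406 CPM), which all code for small proteins of the ribosome. The 5 lowest were Rpl10l, Rpl36al, Rpl3l, Rpl24 and Rpl39l. Rpl10l, a paralog of Rpl10 known from the male germ line, had 0 counts in all 23 tumors, which allows up to 3 counts in each. Rpl3l, the form of Rpl3 known from striated muscle, had 46 counts in all, 21 of them in PTX_IP_3. Rpl39l had 150 counts over 19 tumors. Rpl36al had 34 counts in all, of which 31 were in CTRL_IT_11. Rpl24 is no minor form, yet it had 67 counts in all. In the GENCODE annotation the gene model Gm28037 covers 41.1% of the exon bases of Rpl24 on the same strand. Gm49383 covers 11.1% of those of Rpl36al, but none of its last 150 bases. Rps10 and Rpl23a, which also code for standard parts of the ribosome, had means of 14.2 and 12.4 CPM. The gene model Gm49804 covers 40.7% of the last 150 bases of Rps10, and the last 150 bases of Rpl23a have 5 further copies in the genome at 98% identity or more. Over all members, 33 were overlapped by exons of another gene on their strand. Among these only Rpl24 (16.7%) and Rps10 (40.7%) shared any of their last 150 bases with such a gene. At least 1 further copy of the last 150 bases was found for 23 members. Their median level was 711 CPM, against 1059 CPM for the 60 members without such a copy. Rps12 had the most copies of the members named here, 20. The levels of all these genes are therefore uncertain wherever reads could be shared.

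Of the 83 members, 79 entered the tests in the IT tumors (all but Rpl10l, Rpl24, Rpl36al and Rpl3l). In the IP tumors Rpl39l was also left out, and 78 entered. Together the 83 genes took a median of 8.76% of the counts of a tumor. In CTRL_IT their share was 11.1%, 9.25%, 9.79% and 10.1%. In NCTD_IT it was 8.16%, 7.29%, 8.82% and 7.10%, so that every NCTD_IT tumor lay below every CTRL_IT tumor. MIX_IT tumors had 8.04%, 7.97%, 7.56% and 9.19% and also lay below the 4 controls. The PTX_IT tumors did not separate from them, with 8.27%, 7.46% and 10.3%. By the IP route the order was the other way: CTRL_IP had 8.01% and 8.52%, PTX_IP 8.82% and 10.3%, NCTD_IP 9.38% and 8.84%, and MIX_IP 8.76% and 8.57%. As mean ± SD, the share was 10.1% ± 0.770 in CTRL_IT (n = 4), 7.84% ± 0.797 in NCTD_IT (n = 4), 8.19% ± 0.701 in MIX_IT (n = 4) and 8.68% ± 1.47 in PTX_IT (n = 3). Both subunits took part. The small subunit went from 3.88% ± 0.271 in CTRL_IT to 3.05% ± 0.336 in NCTD_IT, and the large subunit from 6.18% ± 0.505 to 4.79% ± 0.468 (SD, n = 4 each). In bulk tumors, fewer cells of a type and less RNA per cell cannot be told apart.

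**Figure D1:**
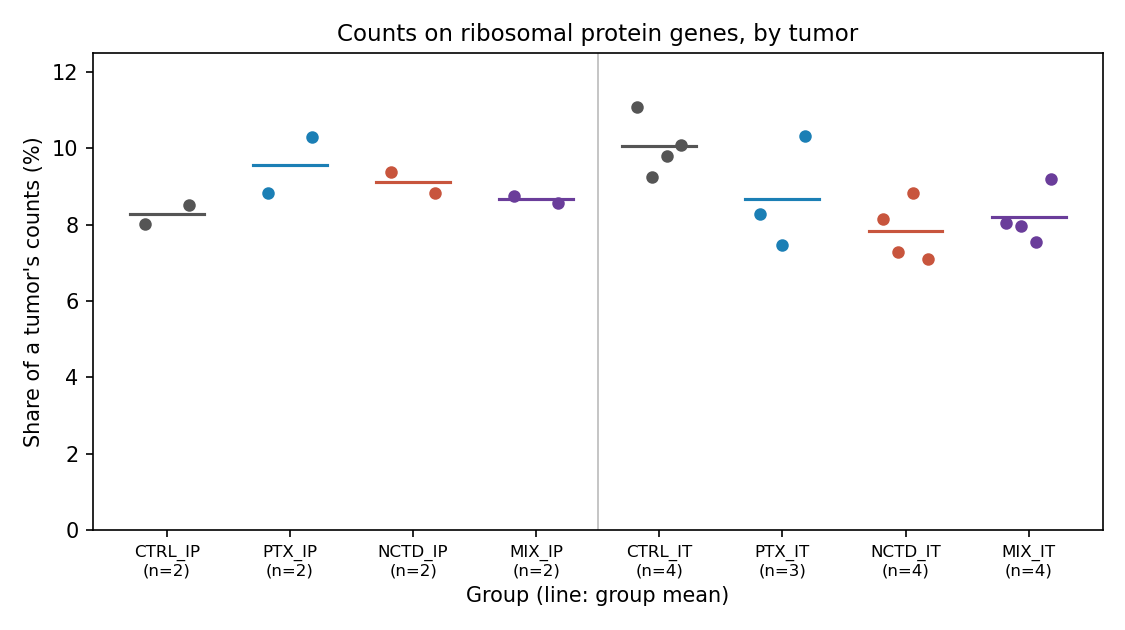
Share of each tumor's counts (vertical axis, percent) that fell on the 83 ribosomal protein genes, by group (horizontal axis). Each point is a tumor and each line the mean of its group. All 8 NCTD_IT and MIX_IT tumors (7.10% to 9.19%) sit below the 4 CTRL_IT tumors (9.25% to 11.1%), whereas PTX_IT spreads from 7.46% to 10.3%.

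NCTD given into the tumor went with lower levels of most ribosomal protein genes. Of the 79 members tested, 70 had a log2 fold change below 0 against CTRL_IT (48.0% of all genes tested did), and the median over the members was -0.44, against 0.03 over all 12480 genes. By edgeR's quasi-likelihood test with Benjamini-Hochberg adjustment over all genes, 2 members passed an adjusted p of 0.05, and both fell (1.37% of all genes tested passed). At an unadjusted p below 0.05, 47 members were lower (10.0% of all genes) and 2 were higher (11.6% of all genes), out of 21.6% of all genes in either direction. The count past the adjusted threshold depended on the fit. It was 32 with DESeq2 on the same tumors, the tool that the study's methods name, and 37 with DESeq2 on the 2 groups alone. With edgeR it was 28 on the 2 groups alone, 27 with all 23 tumors in a model, and between 0 and 26 when a tumor was left out. The share of all genes called was counted for the main fit only. Counts from other fits, here and below, therefore cannot be set against 1.37%. The median moved less, between -0.51 and -0.39 when a tumor was left out, and it was -0.45 when the libraries were scaled without ribosomal protein genes.

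The 2 genes called were Rpl29 and Rpl10a, both of the large subunit. Rpl29 (GRCm39, chr9:106306653-106308767, plus strand) was at 489, 336, 418 and 435 CPM in CTRL_IT and at 212, 151, 187 and 173 CPM in NCTD_IT. The groups did not overlap, and the log2 fold change was -1.21 ± 0.25 (SE), at an edgeR adjusted p of 0.0363. Rpl10a (chr17:28547445-28550007, plus strand) was at 506, 359, 423 and 489 CPM in CTRL_IT and at 257, 177, 191 and 194 CPM in NCTD_IT. Its groups did not overlap either, with a log2 fold change of -1.12 ± 0.24 (SE), at an edgeR adjusted p of 0.0363. In the search for copies of transcript ends described above, Rpl10a had 2 further copies, 1 of them exact, and Rpl29 had none. The level of Rpl10a is therefore uncertain wherever reads could be shared, and the part of such reads was not tested. Both calls were lost when CTRL_IT_9, CTRL_IT_11, CTRL_IT_12, PTX_IT_13 or any of the NCTD_IT tumors was left out, and without NCTD_IT_19 edgeR gave an adjusted p of 0.0506 for Rpl29 and 0.0527 for Rpl10a. Rpl19, also of the large subunit, was next by p, with 310, 253, 258 and 281 CPM in CTRL_IT against 144, 88.4, 115 and 142 CPM in NCTD_IT. These values do not overlap, and the log2 fold change was -1.17 ± 0.28 (SE), at an edgeR adjusted p of 0.0522.

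Not every member was lower in NCTD_IT. Rpsa, a protein at the exit side of the small subunit that is also known as the laminin receptor, was at 1733, 1164, 1323 and 1438 CPM in CTRL_IT and at 2229, 2424, 2220 and 1767 CPM in NCTD_IT. The NCTD_IT tumors were all above the controls, with a log2 fold change of 0.61 ± 0.21 (SE) and an adjusted p of 0.108 in edgeR. Rps10, a small subunit protein near the entry of the messenger RNA, was at 15.7, 6.79, 6.80 and 4.81 CPM in CTRL_IT and at 23.5, 33.5, 26.3 and 8.53 CPM in NCTD_IT. Here the groups overlapped, and the log2 fold change was 1.43 ± 0.44 (SE) with an adjusted p of 0.0845 in edgeR. DESeq2 on the same tumors gave an adjusted p of 0.0308 for Rps10 and of 0.0579 for Rpsa. Rps26 followed among the higher members, with a log2 fold change of 0.29 ± 0.34 (SE), at an edgeR adjusted p of 0.657.

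Other features of these tumors moved along with the ribosomal protein genes. All 5 fibroblast genes on the marker list had positive log2 fold changes in NCTD_IT (summed level 377 to 1654 CPM, against 106 to 359 CPM in CTRL_IT), as did all 4 endothelial genes (66.4 to 140 CPM, against 32.9 to 62.5 CPM), 5 of 6 macrophage genes (390 to 996 CPM, against 175 to 791 CPM) and all 3 of the 4 neutrophil genes that were tested (17.6 to 1079 CPM, against 2.26 to 8.76 CPM). No gene of these 4 lists was at 0 in every tumor of either group. The neutrophil sum of 1079 CPM was that of NCTD_IT_18, and the other NCTD_IT tumors were at 17.6 to 44.9 CPM. The 4 lymphocyte genes tested, of 6 on the list, were higher as well (7.26 to 121 CPM, against 0.772 to 39 CPM), while Cd79a was at 0 in both groups and Ms4a1 in CTRL_IT. The 4 erythroid genes tested, of 5, were lower (258 to 1360 CPM, against 1238 to 6944 CPM), with Alas2 at 0 in CTRL_IT. The melanoma list was at 19690 to 28023 CPM, against 26960 to 32687 CPM, with 7 of 8 genes lower. Fabp4, the adipocyte gene tested of 4 on the list, had a log2 fold change of 1.23 (edgeR adjusted p 0.135), and the list summed to 135 to 292 CPM against 68.6 to 85.2 CPM, with Adipoq at 0 in CTRL_IT. The 2 skeletal muscle genes tested, of 9, had positive log2 fold changes that did not pass, the sums overlapped (6.95 to 248 CPM, against 5.66 to 43.6 CPM), and Atp2a1, Mb and Tnnc2 were at 0 in both groups. Genes annotated as ribosomal RNA together took 1.35% to 1.95% of the counts in NCTD_IT and 0.862% to 1.12% in CTRL_IT, without overlap. The proliferation list (Mki67, Top2a, Ccnb1, Cdk1 and Aurkb) summed to 800, 912, 1132 and 417 CPM in NCTD_IT. In CTRL_IT it summed to 1349, 780, 957 and 970 CPM, so the groups overlapped. In both groups the tumor with the highest sum also had the highest share of counts on the members, and likewise for the lowest. The part of these cells, of proliferation, of the ribosomal RNA and of the higher Malat1 in the lower ribosomal protein counts was not tested. When Xist (its log2 CPM) was added to the model, although its levels in NCTD_IT and CTRL_IT do not overlap, 0 members passed at an adjusted or an unadjusted p of 0.05, and the log2 fold changes of Rpl29 and Rpl10a were -0.04 and -0.10 in edgeR. Because of that split this fit cannot separate the drug from the sex-linked difference, and no conclusion is drawn from it.

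In PTX_IT the members leaned the same way but with more spread between tumors. The drug groups of a route share their control tumors. Again 70 of 79 log2 fold changes were below 0 (48.4% of all genes), with a median of -0.27 against 0.02 over all genes. No member passed an adjusted p of 0.05 in edgeR or in DESeq2 (0% of all genes did in edgeR), and at an unadjusted p below 0.05 there were 13 lower (2.16% of all genes) and 0 higher (4.18% of all genes), against 6.35% of all genes in either direction. The members with the smallest p were Rpl10a, Rpl29 and Rps2, a small subunit protein near the entry of the messenger RNA, and Rps13 (0.45 ± 0.26 SE), Rps26 (0.48 ± 0.36 SE) and Rpl7 (0.24 ± 0.25 SE) led the higher ones. Rpl10a was at 257, 169 and 379 CPM in the 3 tumors, a log2 fold change of -0.72 ± 0.26 (SE), at an edgeR adjusted p of 0.785. Rps2 was at 637, 381 and 1066 CPM, against 858 to 1365 CPM in CTRL_IT. The tumors PTX_IT_13 and PTX_IT_15 lay below the controls in both genes and PTX_IT_16 lay within their range. Further genomic copies of the transcript end numbered 2 for Rpl10a (1 exact) and 13 for Rps2 (9 exact). The part of shared reads in these levels was not tested. PTX_IT_16 also had the lowest Malat1 level of the IT tumors, 74.2 CPM, against 193 and 424 CPM in the other PTX_IT tumors. Sums of several marker lists differed between these tumors too. In PTX_IT_13, PTX_IT_15 and PTX_IT_16 the fibroblast list summed to 797, 669 and 249 CPM, the macrophage list to 952, 825 and 133 CPM, the lymphocyte list to 37.1, 67.0 and 2.05 CPM, Xist was at 9.20, 11.6 and 1.28 CPM, and the share of ribosomal RNA was 1.79%, 1.75% and 0.691%. In the same order the proliferation list summed to 658, 501 and 1235 CPM, and its part was not tested. All 5 fibroblast, all 6 macrophage and all 4 endothelial genes, and the 4 lymphocyte genes tested, had positive log2 fold changes in PTX_IT, with Cd79a and Ms4a1 at 0, and their part in the ribosomal protein counts was not tested. Without PTX_IT_16 the median of the members was -0.45 and 41 had an unadjusted p below 0.05, and without PTX_IT_15 the median was -0.15 and 0 did. The count was 2 without CTRL_IT_9, 5 without CTRL_IT_12 and 4 without PTX_IT_13.

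With both drugs, in MIX_IT, 70 of 79 members had a log2 fold change below 0 (48.9% of all genes), with a median of -0.37 against 0.01 over all genes. No member passed an adjusted p of 0.05 in edgeR (0% of all genes did). DESeq2 called 11 on the same tumors and 15 on the 2 groups alone (shares of all genes not counted). At an unadjusted p below 0.05 there were 33 lower (5.11% of all genes) and 1 higher (7.88% of all genes). Without CTRL_IT_9 this count of 34 became 20, and without CTRL_IT_12 it became 22. The 3 with the smallest p were Rps3, Rps27 and Rpl10a. Rps3, which lines the entry of the messenger RNA channel, was at 2201, 1740, 1940 and 2013 CPM in CTRL_IT and at 1035, 1299, 962 and 1519 CPM in MIX_IT. The 4 MIX_IT tumors were all below the controls, with a log2 fold change of -0.72 ± 0.18 (SE), at an edgeR adjusted p of 0.153. Rps27, whose TOP start is shown above, was at 1215, 948, 1021 and 1097 CPM in CTRL_IT and at 628, 813, 479 and 787 CPM in MIX_IT, again without overlap (log2 fold change -0.67 ± 0.18 SE, edgeR adjusted p 0.166). The 1 higher member was Rps10, with a log2 fold change of 1.06 ± 0.44 (SE), at an edgeR adjusted p of 0.320, followed by Rpsa (0.41 ± 0.21 SE) and Rplp1 (0.22 ± 0.15 SE). All 5 fibroblast genes had positive log2 fold changes here too, with a summed level of 8524 CPM in MIX_IT_23 and of 484 to 1862 CPM in the other MIX_IT tumors. So had all 4 endothelial genes (55.1 to 206 CPM), the 3 neutrophil genes tested (13.5 to 19.7 CPM) and Fabp4, the adipocyte gene tested (list sum 76.1 to 520 CPM), and the melanoma list lay at 15791 to 29711 CPM with negative log2 fold changes for 6 of 8 genes. No fibroblast, endothelial, neutrophil or adipocyte gene was at 0 in every MIX_IT tumor. The proliferation list summed to 1161, 653, 1394 and 1028 CPM in MIX_IT. MIX_IT_23 had the highest of these sums but the lowest share of counts on the members. The part of these cells and of proliferation was not tested. Xist was at 0 in all MIX_IT tumors. With Xist in the model 43 members had an unadjusted p below 0.05 in this comparison (share of all genes not counted). This is the fit described for NCTD_IT, in which all IT groups share the slope of Xist. No conclusion is drawn from it here either.

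The drugs were also compared with their combination. These comparisons share tumors with those above. Between MIX_IT and NCTD_IT the median log2 fold change of the members was 0.09, with 58 of 79 above 0 (50.6% of all genes) and 21 below (49.4%), no member passed an adjusted p of 0.05 in edgeR or DESeq2 (0.00801% of all genes did in edgeR), and 1 had an unadjusted p below 0.05, on the higher side (6.02% of all genes did, 3.04% higher and 2.98% lower). This was Rps27l, the p53-inducible paralog of Rps27, with a log2 fold change of 0.47 ± 0.21 (SE). Between MIX_IT and PTX_IT the median was -0.11 (19 of 79 above 0, against 49.4% of all genes, and 60 below, against 50.6%), no member passed in either tool (0% of all genes did in edgeR), and 3 had an unadjusted p below 0.05, all lower (3.75% of all genes did, 1.68% lower and 2.07% higher), namely Rps13 (-0.82 ± 0.26 SE), Rps28 (-0.42 ± 0.19 SE) and Rps3 (-0.42 ± 0.19 SE). Without PTX_IT_16 this median became 0.10. Asked for any difference among the 4 IT groups, edgeR called 0 members at an adjusted p of 0.05 (0.0240% of all genes). In edgeR 35 members had an unadjusted p below 0.05 (12.9% of all genes). DESeq2 called 13 (share of all genes not counted).

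**Figure D2:**
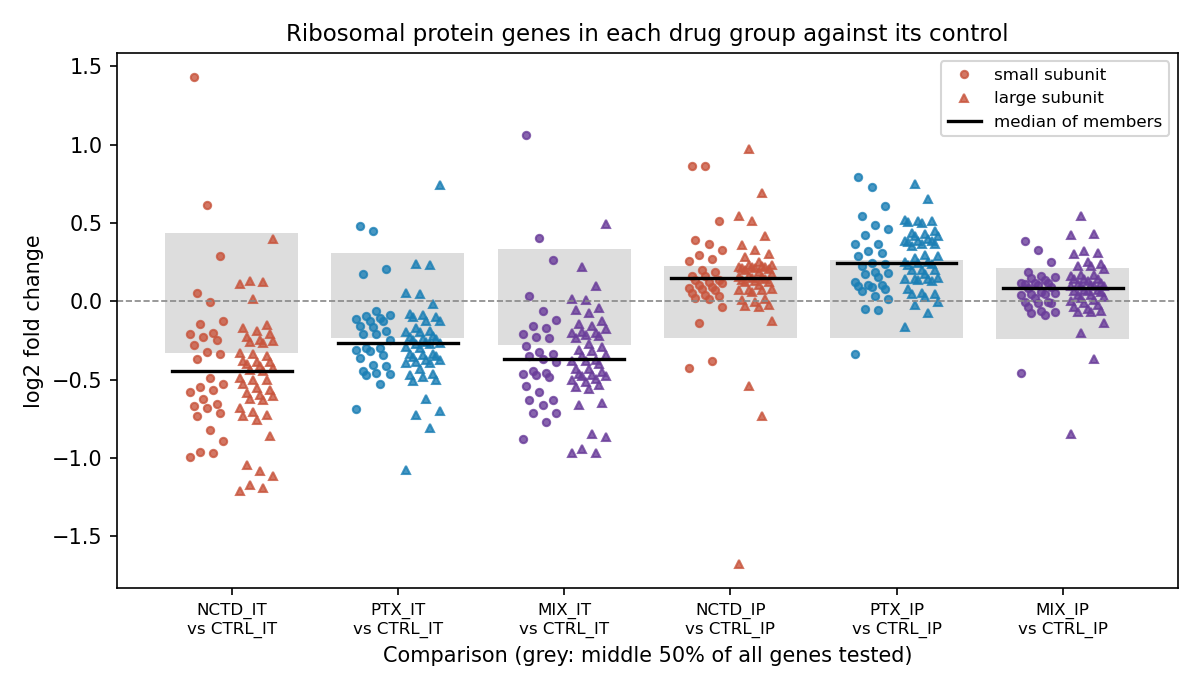
The log2 fold change (vertical axis) of each ribosomal protein gene in each drug group against the control of its route (horizontal axis). Circles are small and triangles large subunit genes, the black line is the median of the members, and the grey box holds the middle 50% of all genes tested. The medians lie at -0.44, -0.27 and -0.37 for NCTD_IT, PTX_IT and MIX_IT, and at 0.15, 0.24 and 0.08 for NCTD_IP, PTX_IP and MIX_IP.

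By the intraperitoneal route the members lay on the other side of 0, and no call was made. In PTX_IP 71 of 78 log2 fold changes were above 0 (51.2% of all genes), with a median of 0.24, and 11 members were higher and 0 lower at an unadjusted p below 0.05 (3.00% and 2.30% of all genes, 5.30% in all). In NCTD_IP 66 were above 0 (49.1% of all genes), with a median of 0.15, and 3 were higher (1.92% of all genes) and 2 lower (1.67%) at that threshold, which 3.59% of all genes passed. In MIX_IP 57 were above 0 (48.8% of all genes), the median was 0.08, and 2 were lower (1.55% of all genes) and 0 higher (1.39%), out of 2.94% of all genes. No member passed an adjusted p of 0.05 in the 3 comparisons, in edgeR or in DESeq2 (0% of all genes did in edgeR). The same held for any difference among the 4 IP groups (0% of all genes, with 3.27% at an unadjusted p below 0.05). Other features moved in these groups too. The mitochondrial share was 2.44% to 3.62% in the 6 tumors given a drug, below the 3.69% and 4.29% of CTRL_IP. CTRL_IP_2 was the only IP tumor with counts of Xist, at 8.26 CPM, and had the lowest Ddx3y level of them, 0.451 CPM. Markers of fibroblasts summed to 1115 and 411 CPM in CTRL_IP and to 254 to 1112 CPM in the drug groups, and the melanoma list to 34833 and 30530 CPM against 27802 to 38152 CPM. PTX_IP_3 and PTX_IP_4 differed in macrophage (1274 and 238 CPM), lymphocyte (60.5 and 2.62 CPM) and keratinocyte sums (120 and 0 CPM). Their proliferation sums were 394 and 944 CPM. In CTRL_IP the macrophage list summed to 735 and 636 CPM and the proliferation list to 923 and 640 CPM. The part of these features in the ribosomal protein counts was not tested. Rpl35, a large subunit protein at the exit of the peptide tunnel, led in PTX_IP, with 434 and 330 CPM against 225 and 231 CPM in CTRL_IP. Its log2 fold change was 0.75 ± 0.20 (SE), at an edgeR adjusted p of 0.906. Rps9, a small subunit protein, followed with 1105 and 1190 CPM against 702 and 808 CPM (0.61 ± 0.17 SE), and Rpl37a with 703 and 512 CPM against 443 and 329 CPM (0.65 ± 0.21 SE). In these 3 genes both PTX_IP tumors were above both CTRL_IP tumors. With 2 tumors against 2, full separation in either direction has a probability of 0.333 by chance. Genes that lead a comparison, here and above, were picked by their p, so lack of overlap adds no support. Rps12 (-0.34 ± 0.16 SE) had the smallest p among the lower members of PTX_IP. Without CTRL_IP_1 the count of 11 became 4, and without PTX_IP_4 it became 6.

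Among the higher members of NCTD_IP, Rps10 was at 20.2 and 14.1 CPM against 9.32 and 9.46 CPM in CTRL_IP, without overlap (log2 fold change 0.87 ± 0.33 SE), and Rpl41 had a log2 fold change of 0.69 ± 0.27 (SE). Rps12 (-0.38 ± 0.16 SE), Rpl22l1 (-0.54 ± 0.24 SE) and Rpl23a (-0.73 ± 0.34 SE) led the lower members there, each with an adjusted p of 0.999 in edgeR. In MIX_IP the lower members were led by Rpl30, with 651 and 439 CPM against 1042 and 932 CPM in CTRL_IP (-0.85 ± 0.26 SE), and Rps12, with 341 and 336 CPM against 476 and 462 CPM (-0.46 ± 0.16 SE). Both were below the controls without overlap, which, as for Rps10, 2 tumors against 2 often reach by chance. Rpl23a (-0.20 ± 0.33 SE) was next. The count of 2 became 0 without MIX_IP_8. The higher members with the smallest p were Rpl11, a regulator of Mdm2 when it is free of the ribosome (0.55 ± 0.28 SE), Rpl9 (0.42 ± 0.24 SE) and Rpl18 (0.32 ± 0.20 SE). Without NCTD_IP_5, NCTD_IP_6 or CTRL_IP_1 the count of 5 for NCTD_IP became 2, 7 and 1, and without PTX_IP_3 or PTX_IP_4 it became 8.

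To set the routes side by side, all 23 tumors entered a single fit, and the difference was taken as the effect of a drug by the IT route minus its effect by the IP route. The difference was below 0 for 74 of 79 members for NCTD (47.2% of all genes) and likewise for PTX (48.5%), and for 69 of 79 for MIX (46.5%). Its median was -0.57, -0.53 and -0.47, against 0.05, 0.02 and 0.06 over all genes. No member passed an adjusted p of 0.05 in edgeR (0% of all genes in each). DESeq2 called 3 for NCTD and 0 for PTX and MIX (shares of all genes not counted). At an unadjusted p below 0.05 there were 38 lower members for NCTD (5.34% of all genes), 25 for PTX (2.64%) and 17 for MIX (2.69%). Controls of each route enter these differences, and the CTRL_IT share of 10.1% ± 0.770 (SD, n = 4) stood above the CTRL_IP share of 8.27% ± 0.363 (SD, n = 2), the route, the vehicle and the batch being the same split. The sex-linked difference of NCTD_IT and PTX_IT from CTRL_IT also enters the NCTD and PTX differences. By the IP route only CTRL_IP_2 had counts of Xist. Drug, route and this difference therefore cannot be told apart there.

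**Figure D3:**
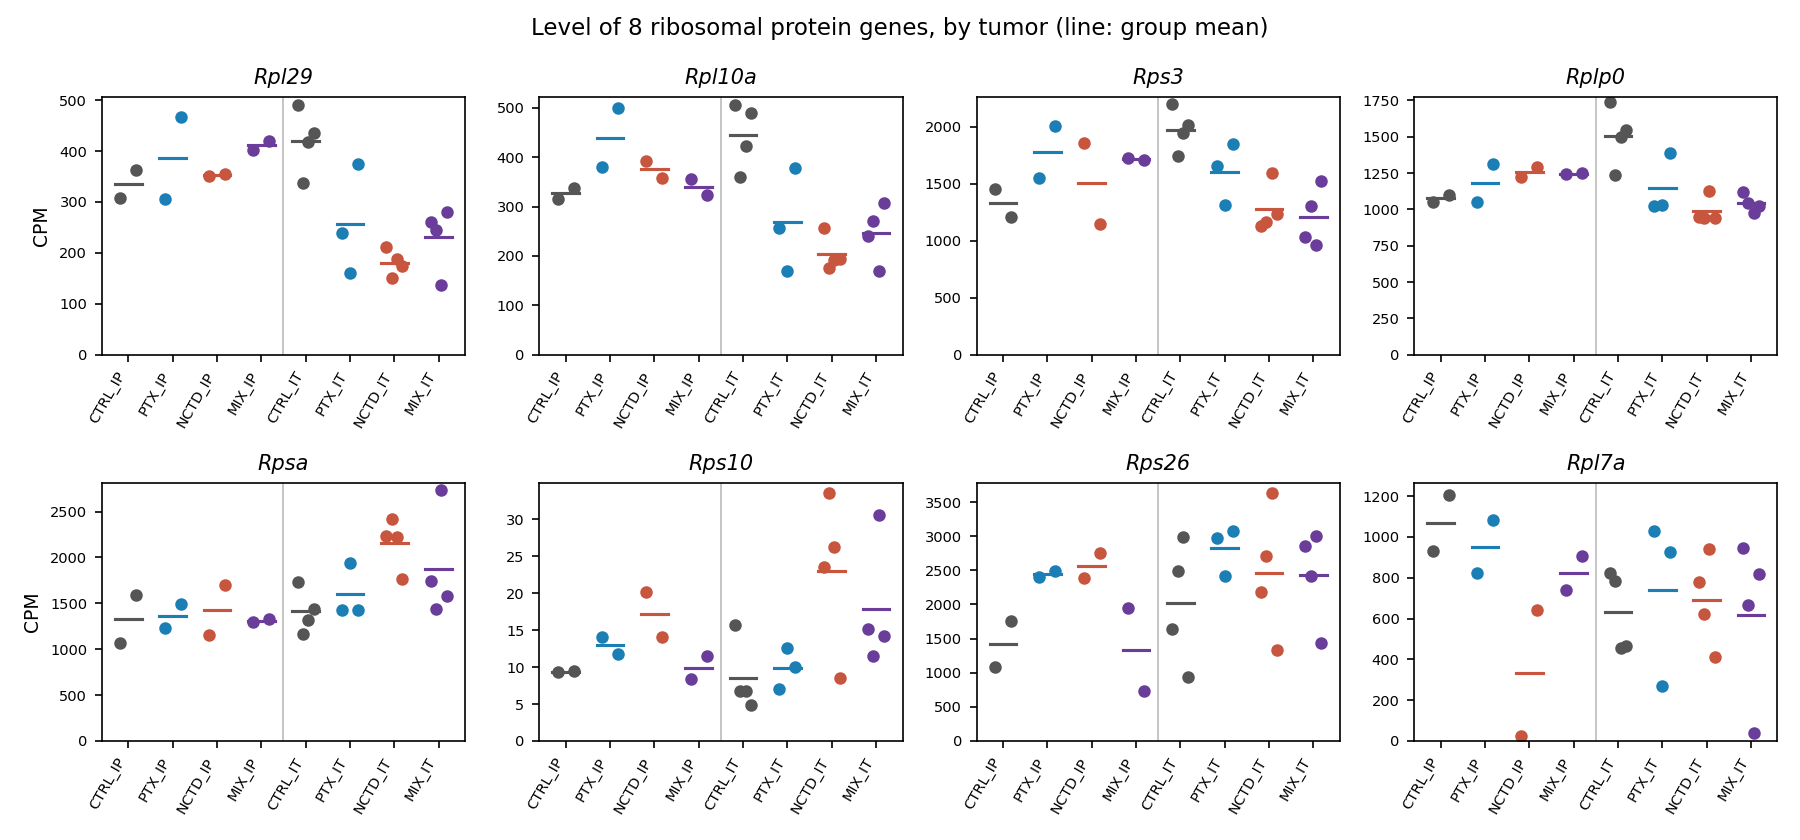
Level (vertical axis, CPM, linear from 0) of 8 ribosomal protein genes in each tumor by group (horizontal axis), with a line at each group mean. Rpl29, Rpl10a, Rps3 and Rplp0 were lower in NCTD_IT and MIX_IT than in CTRL_IT, Rpsa and Rps10 tended the other way, and Rps26 and Rpl7a varied within groups, Rpl7a down to 26.3 CPM in NCTD_IP_5 and 38.3 CPM in MIX_IT_23. Rpl7a, Rpl10a and Rps10 have 4, 2 and 1 further genomic copies of their transcript ends, and the part of shared reads was not tested.

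Many of the members varied together across the IT tumors. Likeness was measured as the Pearson correlation of a gene's log2 CPM with the median of the other 78 members over the 15 IT tumors. Its median over the members was 0.78, 37 of 79 were above 0.8 and 7 were below 0. The groups differ in their means, and with group means removed the median was 0.72, with 33 above 0.8. The tumors share libraries and depth, and these values are descriptions. Rpl12, a large subunit protein next to the stalk, was most like the others at 0.97, followed by Rpl32 and Rps7. The 5 least like them were Rpsa at -0.57, Rps10 at -0.48, Rpl39l at -0.30, Rps26 at -0.30 and Rplp1 at -0.13. With group means removed, the lowest were Rps24 at -0.46, Rpl39l at -0.40, Rpsa at -0.33 and Rpl22l1 at -0.33, while Rps10 was at -0.08. Within groups the members had a median SD of 0.25 on the log2 scale, against 0.44 over all 12480 genes. The members were not compared with genes of a like level, so the part of level in this difference was not tested. The SD was lowest for Rps29 (0.12), Rps21, Rpl36a, Rpl35a and Rpl39 (0.13 each). It was highest for Rpl7a (1.29), Rpl39l (1.18), Rpl22l1 (0.98), Rps6 (0.74) and Rps10 (0.67). Further genomic copies of the transcript end numbered 4 for Rpl7a (1 exact), 9 for Rps6 (5 exact) and 1 each for Rpl22l1 and Rps10 (none exact). Rpl39l had no copy but lay at or below 3.43 CPM. Of the members with the lowest SD, only Rpl36a had a copy (1, exact). The part of shared reads and of low counts in the spread was not tested.

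**Figure D4:**
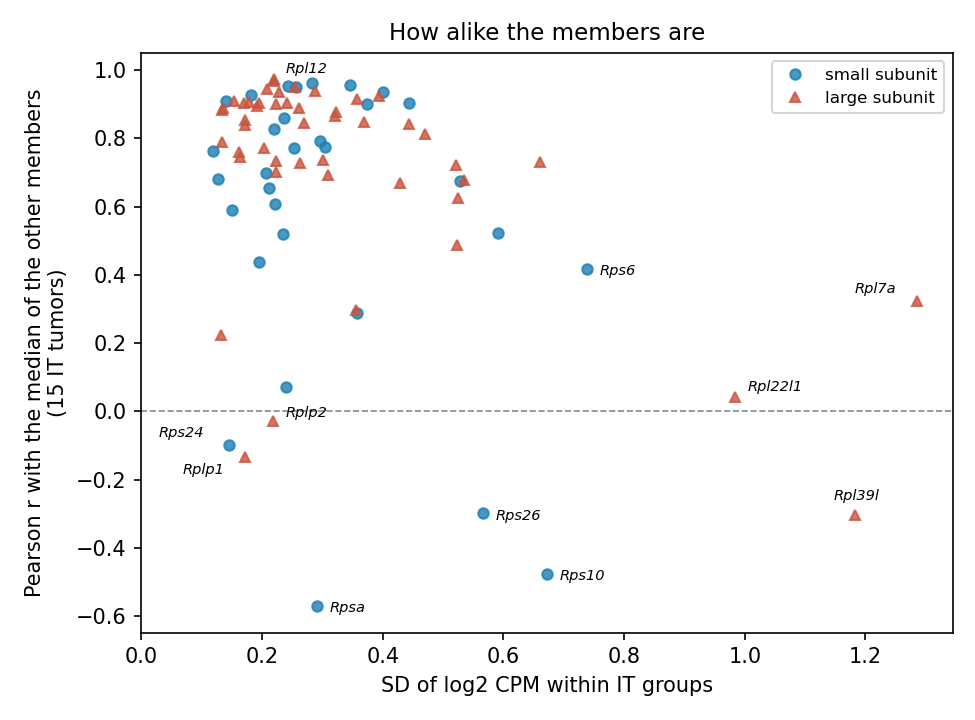
Likeness of each tested member (vertical axis, Pearson r of its log2 CPM with the median of the other members over 15 IT tumors) against its spread (horizontal axis, SD of log2 CPM within the IT groups). Circles are small and triangles large subunit genes. Most members sit at the upper left, around a median r of 0.78 and a median SD of 0.25, while Rpsa, Rps10, Rps26, Rpl39l, Rplp1, Rps24 and Rplp2 lie below 0.

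**Figure D5:**
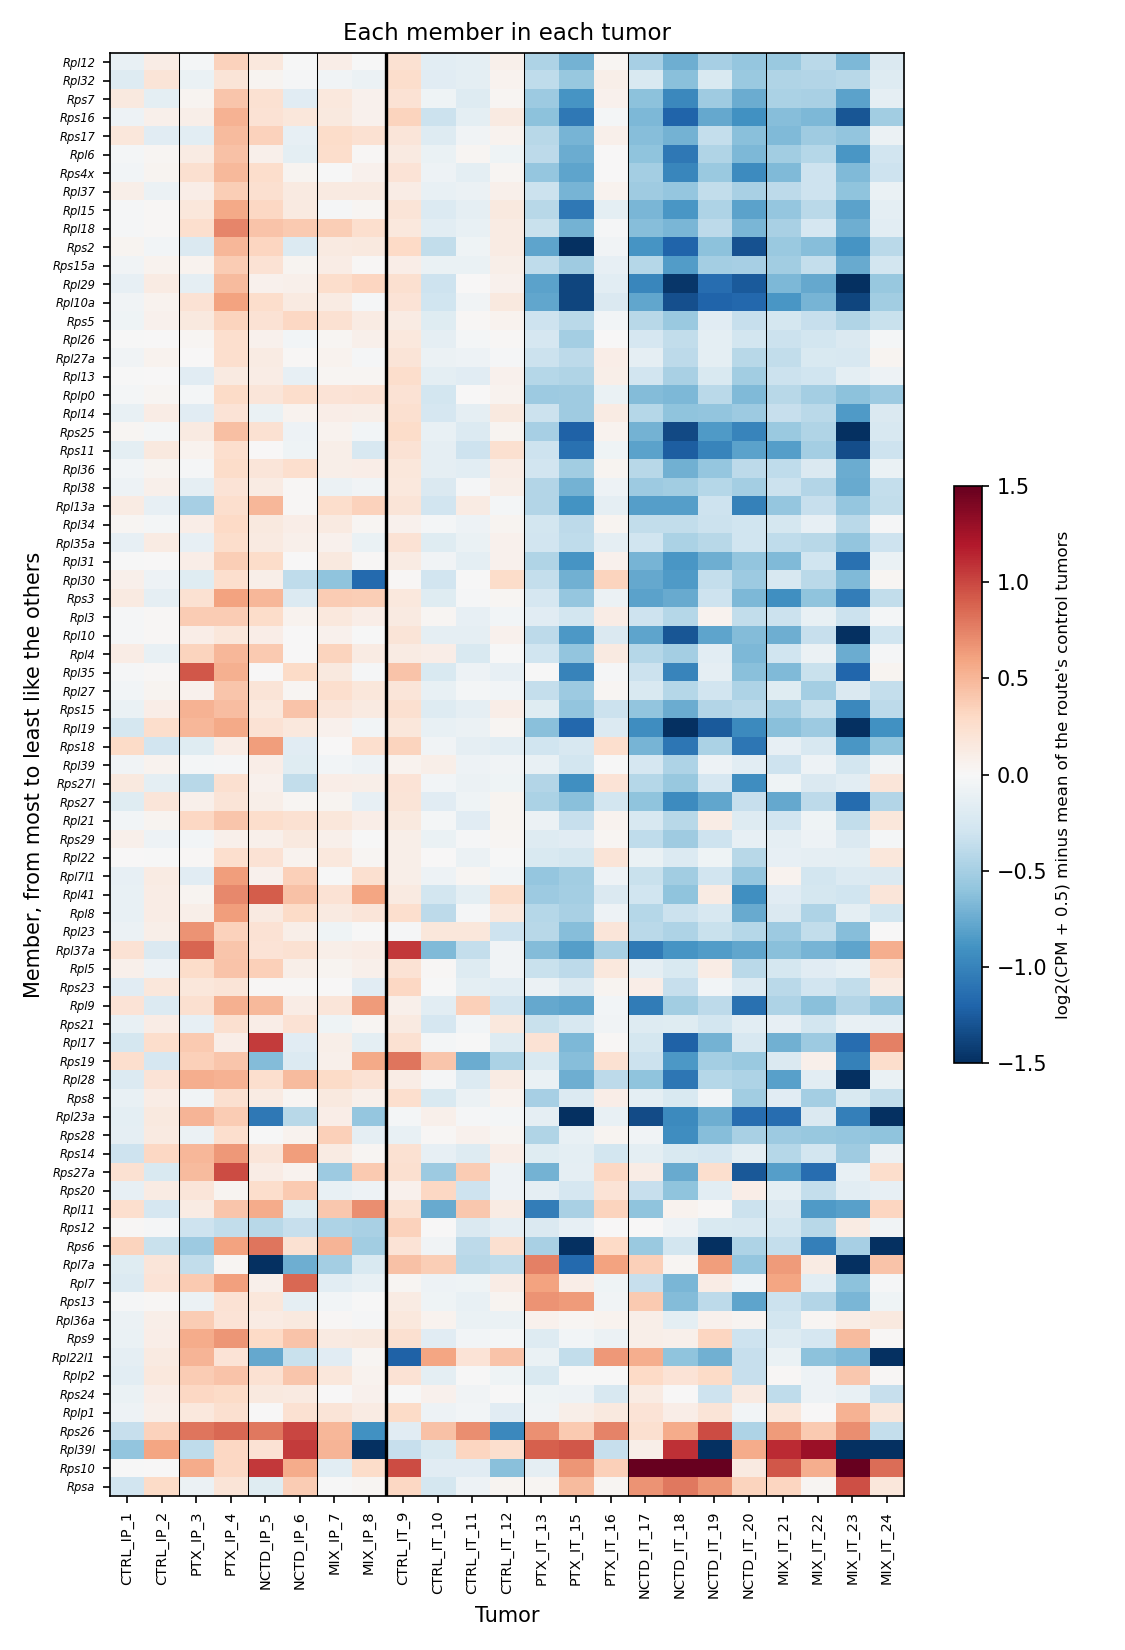
The level of 78 tested members (vertical axis, ordered from most to least like the others) in each tumor (horizontal axis, by group), as log2(CPM + 0.5) minus the mean of the control tumors of the same route, from -1.5 (blue) to 1.5 (red). Blue spreads over most members in the NCTD_IT and MIX_IT tumors and in PTX_IT_13 and PTX_IT_15. Rpsa, among the last members, is red in the 4 NCTD_IT tumors.

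The stalk of the large subunit, which calls in the elongation factors, is built from Rplp0 and copies of Rplp1 and Rplp2. Rplp0 was at 1737, 1236, 1495 and 1547 CPM in CTRL_IT and at 951, 939, 1130 and 941 CPM in NCTD_IT. All NCTD_IT tumors were below the controls, and the log2 fold change was -0.60 ± 0.15 (SE), at an edgeR adjusted p of 0.0556. Rplp1 and Rplp2 had log2 fold changes of 0.11 ± 0.15 (SE) and 0.13 ± 0.17 (SE) in NCTD_IT. In MIX_IT the values were -0.53 for Rplp0, 0.22 for Rplp1 and 0.09 for Rplp2. The difference between Rplp0 and its partners was not tested. Rps6, the small subunit protein that S6 kinases phosphorylate, ranged from 148 to 380 CPM in NCTD_IT and from 348 to 542 CPM in CTRL_IT, which overlap (log2 fold change -0.67 ± 0.42 SE, edgeR adjusted p 0.371). Its spread was wide in other groups too, with 107 to 357 CPM in MIX_IT and 114 to 565 CPM in PTX_IT. The transcript end of Rps6 has 9 further genomic copies, 5 of them exact, and the part of shared reads in this spread was not tested.

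Of the paralogs, Rpl22l1, Rps27l, Rpl7l1 and Rpl39l had enough counts to be tested. Rpl22l1 was at 17, 60.5, 46.1 and 54.0 CPM in CTRL_IT, 58.6, 26.1, 24.2 and 31.5 CPM in NCTD_IT and 37.3, 25.9, 25.2 and 3.16 CPM in MIX_IT. The groups overlap, and the log2 fold change in MIX_IT was -0.97 ± 0.53 (SE), at an edgeR adjusted p of 0.454. Its parent Rpl22 had log2 fold changes of -0.19, -0.08 and -0.06 in NCTD_IT, PTX_IT and MIX_IT (standard errors 0.15, 0.16 and 0.15). Rps27l was at 611, 515, 500 and 508 CPM in CTRL_IT and at 393, 357, 445 and 279 CPM in NCTD_IT, which do not overlap (log2 fold change -0.53 ± 0.21 SE, edgeR adjusted p 0.161). In MIX_IT it was at 508, 457, 477 and 605 CPM, a log2 fold change of -0.06 ± 0.21 (SE), where its parent Rps27 had -0.67. Rpl7l1, known as an assembly factor, had log2 fold changes of -0.43 ± 0.16 (SE) in NCTD_IT and -0.16 ± 0.16 (SE) in MIX_IT, and Rpl7 had -0.21 and 0.01 (standard error 0.24 each). Rpl39l, at or below 3.43 CPM in all tumors, had a log2 fold change of 0.40 ± 1.09 (SE) in NCTD_IT, against -0.23 ± 0.14 (SE) for Rpl39. Among the parents of the paralogs that were not tested, Rpl10 had -0.86 ± 0.23 (SE), at an edgeR adjusted p of 0.0606, Rpl3 -0.25 ± 0.15 (SE) and Rpl36a 0.01 ± 0.14 (SE) in NCTD_IT. The difference between a paralog and its parent was not tested.

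The members were also split by the letters of their start and by copies of their 3′ end, and neither difference was tested. In NCTD_IT 11 of 13 members with such a start were lower, with a median of -0.55, and 40 of 46 without it, with a median of -0.43. In MIX_IT the medians were -0.47 and -0.36, and in PTX_IT -0.29 and -0.30. In NCTD_IT 51 of the 57 tested members without another genomic copy of their last 150 bases were lower, with a median of -0.43, and 19 of 22 with a copy, with a median of -0.50.

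Genes that work with the ribosomal proteins were followed as 5 lists chosen by role. Of 16 translation factors and partners whose messenger RNAs carry TOP starts, 15 were lower in NCTD_IT, with a median of -0.27, and 7 of these had an unadjusted p below 0.05, but none passed the adjusted threshold. Of all genes tested in that comparison, 48.0% were lower, 10.0% were lower at an unadjusted p below 0.05 and 1.37% passed. The smallest p was that of Eef1g, a subunit of the elongation factor that reloads Eef1a1 (log2 fold change -0.79 ± 0.19 SE, edgeR adjusted p 0.0538). In MIX_IT 13 of the 16 were lower, led by Eef1a1, which carries aminoacyl-tRNA to the ribosome (-1.09 ± 0.26 SE, edgeR adjusted p 0.135). Of the 25 ribosome assembly factors, 18, 19 and 14 were lower in NCTD_IT, PTX_IT and MIX_IT, and 22, 22 and 20 were higher in NCTD_IP, PTX_IP and MIX_IP. Of all genes, 48.0%, 48.4% and 48.9% were lower in the IT groups, and 49.1%, 51.2% and 48.8% were higher in the IP groups. Nop10 led in NCTD_IT (-0.79 ± 0.23 SE, edgeR adjusted p 0.0711), Fbl, the methyltransferase of ribosomal RNA, led in PTX_IT (-0.75 ± 0.34 SE) and MIX_IT (-1.09 ± 0.32 SE), and Gar1 led in PTX_IP (0.86 ± 0.26 SE). No assembly factor passed an adjusted p of 0.05 in these 6 comparisons.

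RNA polymerase I and its factors were spread around 0, with 7 of 13 tested lower in NCTD_IT, 9 in PTX_IT and 5 in MIX_IT, and none passed the adjusted threshold. Its subunit Polr1c had the smallest p in all 3, with log2 fold changes of -0.60, -0.60 and -0.58 (standard errors 0.23, 0.25 and 0.23). Among 14 tested regulators of ribosome synthesis, 2 passed in NCTD_IT (1.37% of all genes). Mdm2, the ubiquitin ligase that restrains p53 and is bound by free Rpl5 and Rpl11, rose from 95.5, 112, 95.5 and 95.1 CPM in CTRL_IT to 165, 193, 166 and 178 CPM (log2 fold change 0.81 ± 0.19 SE, edgeR adjusted p 0.0467). Eif4ebp1, the mTOR target that blocks the cap-binding factor, fell from 190, 120, 112 and 148 CPM to 65.2, 95.2, 89.5 and 63.5 CPM (-0.86 ± 0.19 SE, edgeR adjusted p 0.0414). Neither gene's groups overlapped, and no alternative was run for these genes. In MIX_IT the same genes had log2 fold changes of 0.67 (edgeR adjusted p 0.172) and -0.97 (adjusted p = 0.121). Eif4ebp1 also had the smallest p of its list in PTX_IT (-0.83 ± 0.21 SE, edgeR adjusted p 0.758). Of ribosomal proteins that the name rule misses, Fau had log2 fold changes of -0.15 and -0.27 in NCTD_IT and MIX_IT (standard error 0.16 each) and Rack1 -0.06 and 0.00 (standard error 0.17 each). These pathway lists, like the members, share their control tumors across the comparisons of a route.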

How the data were processed

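The authors extracted RNA from 23 tumors, made 3′ mRNA libraries, trimmed reads with Trimmomatic and aligned them with STAR 2.7.11b to GRCm39 (tools and build also stand in the submitters' processing notes). The deposited values are raw counts of reads per gene, not normalized. Strand setting, multi-mapping reads and molecular identifiers are not given in the sources used here, so overlapping genes and near-identical copies may share reads.

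Members, lists and tests were chosen with earlier results of these data known. The main tests used edgeR 4.0.16 (R 4.3.3) with filterByExpr (minimum count 10, minimum total 15), TMM scaling and quasi-likelihood tests. The groups of a route shared a model, effects by route were compared in a model of 23 tumors, p-values were adjusted over all genes by Benjamini-Hochberg, and tests were two-sided. DESeq2 1.42.0 was an alternative. CPM used TMM over 23 tumors, and log2 CPM a prior count of 2. P-values measure the spread between tumors. Pairs of tumors within a group differed by more than sampling noise (chi-square per degree of freedom 8.80 to 71.8). Copies of the last 150 bases were sought with BLAST 2.17.0 (98% identity, 95% cover) in GRCm39, where GENCODE gave overlaps. RefSeq starts come from a GRCm38.p6 table. Of the 83 members, 6 have the same start and end in GENCODE as in the deposited table. The code was tested on simulated data. Genes were named by rule: the 3 members with the smallest p in each direction of each drug comparison, paralogs and parents, stalk genes, Rpsa, Rps6, the extremes of level, spread and likeness, called genes, and the leading gene of each pathway list. Rps28, Rps7, Rpl12 and Malat1 were named after their values were seen. Values of some genes that the rule takes are not reported here.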

Additional observations from a re-analysis of the deposited data

Results flagged for a closer look

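Groups of 4 tumors were screened for a tumor far from the other 3 by Dixon's test at the 95% level, for 3 shares and 36 members in 3 groups. Of 117 sets of 4 values 7 stood out, and chance gives about 5%. In CTRL_IT, CTRL_IT_9 had 611 CPM of Rps27l against 500 to 515 CPM in the others, and CTRL_IT_10 had 16.2 CPM of Rpl23a against 14.9 to 15.1 CPM. In NCTD_IT, NCTD_IT_19 had 1130 CPM of Rplp0 against 939 to 951 CPM, and NCTD_IT_20 had 1940 CPM of Rplp2 against 2850 to 3020 CPM. In MIX_IT, MIX_IT_24 had 1080 CPM of Rpl22 against 867 to 880 CPM and 997 CPM of Rpl37a against 394 to 441 CPM, and MIX_IT_23 had 3260 CPM of Rplp2 against 2330 to 2490 CPM. The shares of counts on all members and on each subunit had no such tumor. Groups of 2 or 3 tumors were not screened, and no member's drug effect differed between the routes at an adjusted p of 0.05 in edgeR.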

How the results depend on the processing

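No paired analysis was possible because each tumor's replicate number is its own and no number recurs in another group. Counts of members with an adjusted p below 0.05 changed most with the fit. Against CTRL_IT, 2 for NCTD_IT became 32 with DESeq2 on the same tumors, 37 with DESeq2 and 28 with edgeR on the 2 groups alone, 27 with all 23 tumors, 22 without the filter on low counts, 0 with the Xist covariate, and 0 to 26 when a tumor was left out (0 without CTRL_IT_9, CTRL_IT_11, CTRL_IT_12, PTX_IT_13, NCTD_IT_17, NCTD_IT_18 or NCTD_IT_20, 1 without NCTD_IT_19, 14 without PTX_IT_15, 21 without PTX_IT_16 and 26 without MIX_IT_23). The count of 0 for MIX_IT became 11 and 15 with DESeq2 on the same tumors and on the 2 groups, and 6 without the filter, and for any difference among the IT groups it became 13 with DESeq2 and 16 without the filter. Without the filter it also became 1 for PTX_IT, 3 for NCTD_IP, 1 for MIX_IP, 4 for any difference among the IP groups, and 6 and 2 for the NCTD and PTX effects by IT minus by IP, the former being 3 with DESeq2. Leaving out a tumor gave 0 to 1 for NCTD_IP and for any difference among the IP groups. The cause was not tested, and the share of all genes called in these other fits was not counted.

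Counts at an unadjusted p below 0.05 also moved, again without a count over all genes in the other fits. With the Xist covariate NCTD_IT went from 49 to 0 and PTX_IT from 13 to 1. Xist does not overlap between these groups and CTRL_IT, so that fit cannot separate drug from sex-linked difference. NCTD_IP went from 5 to 3 with DESeq2, 9 without the filter and 1 with all 23 tumors. PTX_IP went from 11 to 5 on the 2 groups with edgeR and with DESeq2, and to 6 with all 23 tumors. MIX_IP went from 2 to 4 without the filter and to 4 with DESeq2 on the 2 groups. Leaving out a tumor gave 35 to 50 for NCTD_IT, 0 to 41 for PTX_IT, 20 to 41 for MIX_IT, 1 to 8 for NCTD_IP, 4 to 16 for PTX_IP and 0 to 3 for MIX_IP. When a tumor of an IP group was left out, the lone tumor of its group was assumed to vary like the other groups. The medians kept their sign under every scaling, without the filter, on the 2 groups alone and in the members without another genomic copy of their 3′ end, an alternative chosen after seeing the data. Leaving out a tumor gave -0.51 to -0.39 for NCTD_IT, -0.45 to -0.15 for PTX_IT, -0.45 to -0.31 for MIX_IT, 0.06 to 0.19 for NCTD_IP, 0.087 to 0.37 for PTX_IP, 0.04 to 0.12 for MIX_IP, 0.03 to 0.16 for MIX_IT against NCTD_IT, -0.22 to 0.10 for MIX_IT against PTX_IT, and -0.67 to -0.55, -0.70 to -0.39 and -0.56 to -0.38 for the NCTD, PTX and MIX effects by IT minus by IP. The median share of counts of 8.76% was 10.3% with pseudogene counts added and did not move beyond the spread with protein-coding counts as the base. DESeq2's size factors, TMM without ribosomal protein genes and protein-coding genes alone changed none of these results beyond their limits. Depth limits Rpl10l, Rpl36al, Rpl3l, Rpl24 and Rpl39l, whose counts lie at or near the floor.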

Other observations

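Counts on ribosomal protein pseudogenes lay mostly on the same side of 0 as those of the members. The table holds 322 genes with a pseudogene name, of which 102 were tested. In NCTD_IT 73 of the 102 were lower, with a median log2 fold change of -0.29, in PTX_IT 70, with a median of -0.19, and in MIX_IT 77, with a median of -0.29 (48.0%, 48.4% and 48.9% of all genes were lower). Their share of the counts was 1.61%, 1.6% and 2.24% in the PTX_IT tumors, against 1.92% to 2.18% in CTRL_IT. It was 1.39% to 2.20% in NCTD_IT and 1.59% to 2.05% in MIX_IT. Unlike the share of the members, it separated no IT drug group from CTRL_IT. In NCTD_IP, PTX_IP and MIX_IP 82, 89 and 84 were higher, with medians of 0.32, 0.36 and 0.38 (49.1%, 51.2% and 48.8% of all genes were higher). Most pseudogenes are near copies of a member, so that their counts and those of the members cannot be told apart in full.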
